A study of Homo sapiens with 3 samples.

Results

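Genes for 9 regulators of G-protein signalling (RGS) were examined in THP1 cells, an established line from a human monocytic leukaemia. The cells had been given PMA, a phorbol ester that activates protein kinase C and drives THP1 cells to differentiate like macrophages. They are RGS1, RGS2, RGS3, RGS10, RGS12, RGS14, RGS16, RGS18 and RGS19, out of 20033 protein-coding gene records on chromosomes 1 to 22, X and Y. They were chosen by name with earlier results from these same peak lists known, among them the place of RGS16 among the highest acetylated domains, so their peak values are given as a description with no test. Each was taken as its hg38 record with 50 kb on both sides, called its window. The study held 3 samples of wild-type cells, all treated alike with PMA for 24 h: 1 chromatin immunoprecipitation for histone H3 acetylated on lysine 27 (H3K27ac, found at active promoters and enhancers), 1 for the NAD-dependent deacetylase SIRT1, and 1 input without antibody. The input signal was not analysed here. No untreated sample was part of the design, so nothing below is a response to PMA, and with 1 library for each antibody there is no replicate check.

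RGS proteins bind the active, GTP-loaded alpha subunit of heterotrimeric G proteins and speed up its GTP hydrolysis, which ends signalling by G-protein-coupled receptors. In leukocytes they are known as brakes on chemokine and other chemoattractant receptors. RGS1, RGS2, RGS3, RGS16 and RGS18 belong to the R4 subfamily, whose members are mostly little more than the RGS domain. RGS10, RGS12 and RGS14 form the R12 subfamily, in which RGS12 and RGS14 also carry Ras-binding and GoLoco domains. RGS19, also known as GAIP, belongs to the RZ subfamily.

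The line carried H3K27ac at the start of 6 of 6 macrophage marker genes with a start in the RefSeq table, of 1 of 3 T and NK cell genes, of 1 of 1 B cell gene and of 0 of 1 erythroid gene. Over all genes with a start in that table the share was 59.4%. In all, 50268 peaks were listed for H3K27ac and 96805 for SIRT1. The fold of a peak is the authors' value at the summit relative to local background and is compared only within its own list. It was read as fragments plus 1 over background plus 1. The number of fragments at a summit was worked out from that fold and the authors' -log10 p, and the -log10 q is the p adjusted over the list by the peak caller. Total depth is unknown.

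The 9 windows held 66 H3K27ac peaks and 41 SIRT1 peaks over 1312002 bp. All 9 windows contained H3K27ac, as did 83.0% of all protein-coding windows. Inside the record itself 8 of 9 had a peak, against 62.4% of all records. A peak within 1 kb of a start site was found for 8 of 9, against 59.4% of the 15842 genes with a start in the table. RGS18 was the member without one. A gene counted here if any of its starts was marked. Counted by start, 9 of 19 member starts had such a peak (47.4%), against 56.6% of all 22198 starts. The median window had 8 H3K27ac peaks, against 3 over all windows, and a median of 4.47% of its bases lay inside such peaks, against 2.42%. The median of the highest fold in a window was 23.6, against 22.2 over all windows. Coverage among the members ran from 0.374% at RGS18 to 38.8% at RGS16.

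**Figure D1:**
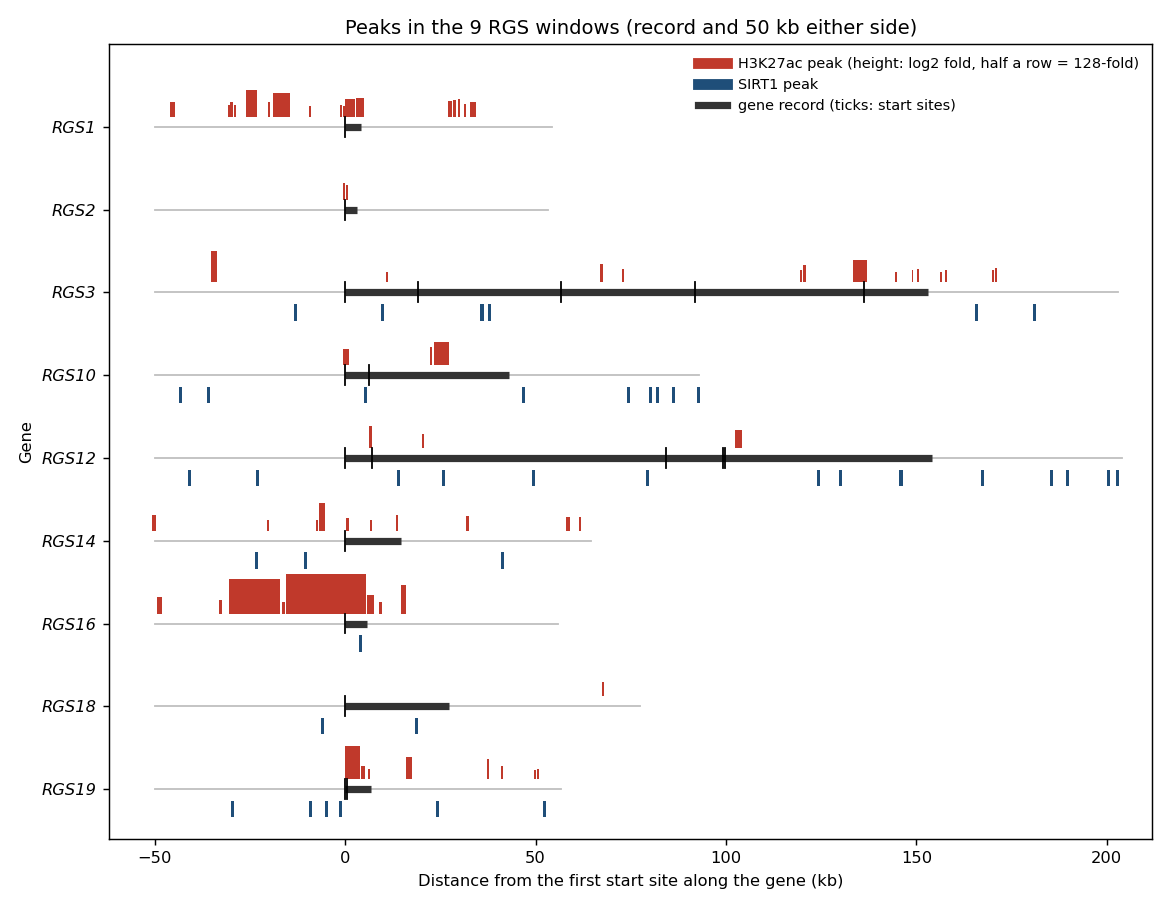
Peaks in the 9 windows, aligned on the first start site (x axis, kb along the gene). Red bars are H3K27ac peaks with height on a log2 scale of fold, blue ticks are SIRT1 peaks, and the dark line is the gene record; RGS16 holds the widest and tallest bars, and RGS1 and RGS2 have no blue tick.

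RGS16, an R4 member that acts on Gi and Gq alpha subunits, had the heaviest acetylation of the 9. Its record on chromosome 1, from 182598623 to 182604389 on the minus strand, is 5767 bp long and was nearly all inside one H3K27ac peak of 21081 bp, from 182598891 to 182619971. That peak had a fold of 107 on 524 fragments at the summit and ranked 9 by width and 78 by fold among the 50268 peaks. It ran from -15582 bp to 5498 bp relative to the start, where negative means upstream, and its summit at -10963 bp lay in the record of the long non-coding RNA LINC01686. A second peak of 13378 bp, from 182621631 to 182635008, had a fold of 58.7 and its summit at -26013 bp, in no annotated record, and ranked 72 by width. Of the 9 windows only that of RGS16 held a peak of at least 10 kb, against 1.84% of all protein-coding windows, and it held 2 of the 165 such peaks on the primary chromosomes. Peaks joined within 10 kb formed a domain of 49.1 kb over RGS16. It held 7 peaks and ranked 9 of 20969 by fold times width. RGS8, the RGS gene next to RGS16 on its upstream side, had no H3K27ac peak at its start and shared 1 peak of fold 6.68 with the RGS16 window.

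RGS1, an R4 member known in lymphocytes and myeloid cells for damping chemokine receptors, showed many modest peaks rather than one wide one. Its window held 17 H3K27ac peaks, the most of the 9, covering 19.5% of its bases, a share above that of 96.1% of all windows. The 2 strongest lay upstream: a peak of 2974 bp with a fold of 23.6 at -24102 bp and one of 4350 bp with a fold of 16.8 at -16563 bp. At the gene itself (chromosome 1, 192575773 to 192580024, plus strand) the folds were lower, 8.08 for the peak that begins 53 bp after the start and 8.90 for the one over the end of the record. Downstream a group of 5 peaks with folds from 4.37 to 7.70 had summits between 27893 and 32935 bp. All 17 summits lay inside the record of the non-coding RNA LOC105371664, which spans RGS1. The nearest start of another protein-coding gene in the table, that of RGS13, was at least 27439 bp away from any of them.

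RGS2, which prefers Gq, and RGS18, best known in platelets and their precursors, lie on the same arm of chromosome 1 as RGS1 and carried little H3K27ac. The RGS2 window (record 192809039 to 192812275, plus strand) had 2 peaks, of fold 6.65 and 5.54 on 24 and 15 fragments, one on each side of the start. Beyond them the next H3K27ac peaks were 199019 bp to the left and 123969 bp to the right of the record. RGS18 (192158462 to 192185815, plus strand) had none in its record and a single peak of fold 5.30 in its window, 40047 bp past its end. On the other side no H3K27ac peak was found until 4317539 bp before the record. The stretch from 187840924 to 192225861 held 0 H3K27ac peaks over 4.38 Mb and 2 complete protein-coding records, BRINP3 and RGS18, and it ranked 20 by length among 48711 gaps between peaks. The same stretch held 138 SIRT1 peaks, 3.15 per 100 kb, near the 3.06 per 100 kb over all protein-coding windows.

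RGS3, the longest record of the 5 R4 members (chromosome 9, 113444730 to 113597738, plus strand), has 5 start sites in the table and was acetylated at 1 of them. A peak of 3781 bp from 113578115 to 113581895 with a fold of 14.6 covered the last start, at 113580928, and had its summit at -2200 bp from it. The other 4 starts lay 7953 to 18919 bp from the nearest H3K27ac peak. The record held 9 H3K27ac peaks, the most of the 9 genes, and apart from that at the last start their folds ran from 3.43 to 8.77. The highest fold of the window, 42.0, belonged to a peak at the start of POLE3, a DNA polymerase epsilon subunit gene, outside the RGS3 record.

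The R12 members had 3 H3K27ac peaks in each record, and 3, 3 and 10 in the windows of RGS10, RGS12 and RGS14. RGS10, a small protein abundant in microglia and macrophages, was marked at its first start (chromosome 10, record 119499817 to 119542719, minus strand) by a peak of 1508 bp with a fold of 6.55. Its strongest peak was internal: 4065 bp from 119515449 to 119519513 with a fold of 16.0, with summit 18256 bp downstream of the second start, and a neighbour of fold 8.22. No other H3K27ac peak lay in its window. RGS12 (chromosome 4, 3285891 to 3439913, plus strand) had 3 H3K27ac peaks in 154 kb of record. The strongest, with a fold of 13, had its summit at -519 bp from the start at 3293021, and the other 4 starts lay 2716 to 18193 bp from a peak. The other 2 had folds of 8.49 and 5.16. RGS14 (chromosome 5, 177357924 to 177372596, plus strand) had 3 peaks in its record with folds of 4.45, 3.43 and 6.47, against a median of 6.36 over the list. The highest fold in its window, 27.1, belonged to a peak at the start of LMAN2, a neighbouring gene of the secretory pathway.

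RGS19, which acts on Gi-family alpha subunits, had the second highest fold at a start among the 9. A peak of 3871 bp from 64076122 to 64079992 on chromosome 20 had a fold of 46.5 on 136 fragments and covered both starts of the gene (record 64073181 to 64079964, minus strand). Its summit, at 64077121, lay inside the record, close to the hairpin of MIR6813, whose mature 5p form runs from 64076983 to 64077005 on the same strand. The peak also came within 1 kb of a start of OPRL1, the nociceptin receptor gene, which is read in the opposite direction, so at this distance the mark cannot be assigned to one of the pair. A peak of fold 12.9 in the same window lay at the start of TCEA2.

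**Figure D2:**
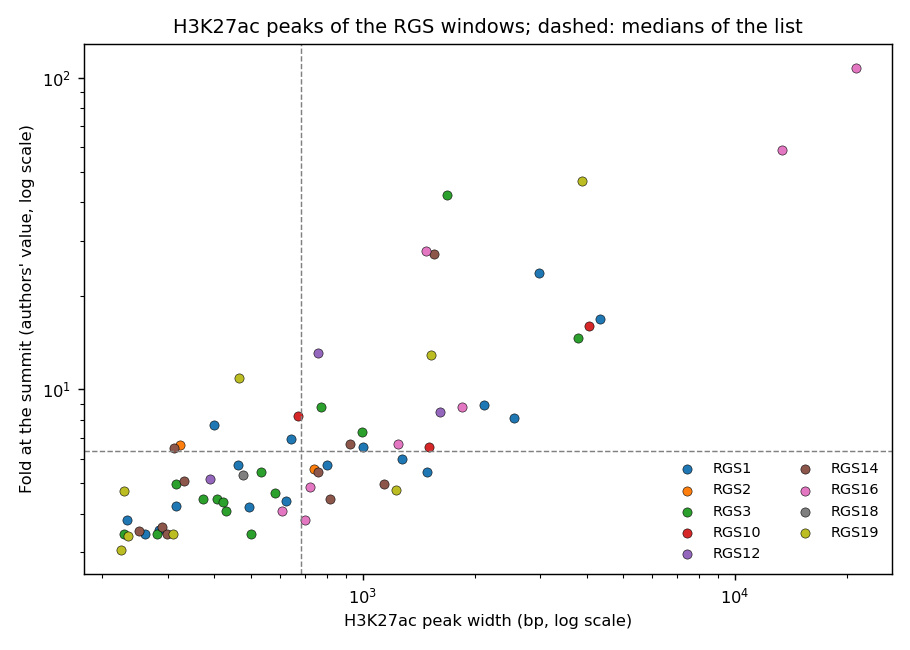
Width (x axis, bp, log scale) against fold (y axis, log scale) of the 66 H3K27ac peaks, 1 point each, coloured by gene, with the list medians of 682 bp and 6.36 dashed. The 2 RGS16 peaks of 21081 and 13378 bp stand at the upper right, and the medians of the 66 are 658 bp and 5.44.

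**Figure D3:**
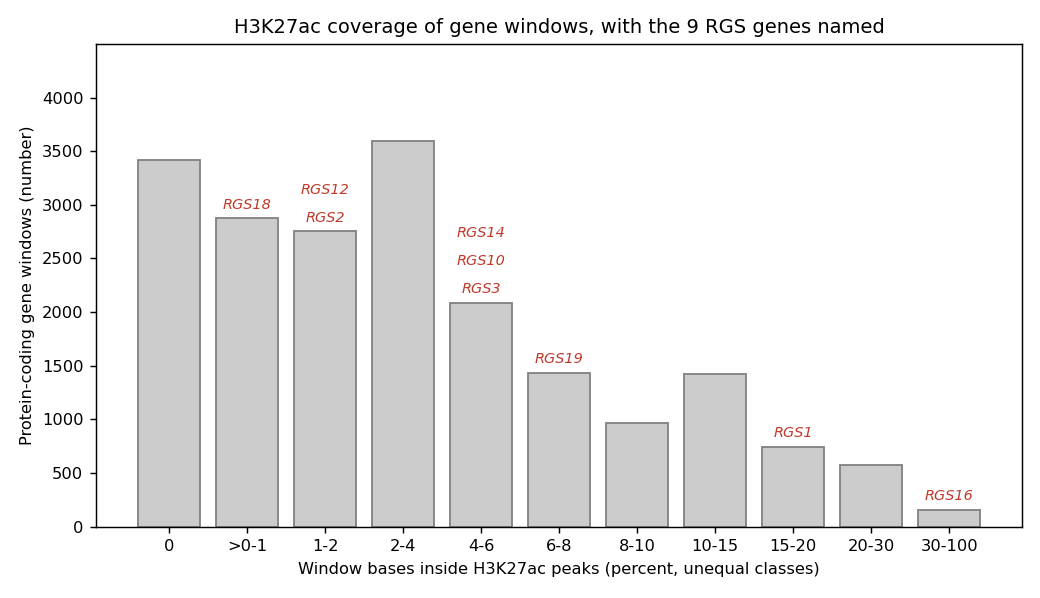
Number of protein-coding windows (y axis) by the share of bases inside H3K27ac peaks (x axis, classes of unequal width), with each RGS gene written above its class. RGS16 falls in the last class, RGS1 in the class from 15 to 20%, and RGS18 in the class under 1%.

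Where a peak lay relative to the start differed among the members. The 300 bases from 250 before to 50 after the start were wholly inside a peak at RGS16, RGS10 (first start), RGS3 (last start) and RGS19 (downstream start). At RGS1 and RGS14 0 of the 300 bases were inside a peak although one began 53 and 135 bp after the start. At RGS2 the bases inside a peak numbered 46, at RGS12 70, and at the upstream RGS19 start 78. Over all 12560 starts with H3K27ac within 1 kb, 61.8% were wholly inside and 10.6% had no base inside. Counting only peaks whose summit lay within 1 kb of a start left 5 members, without RGS3, RGS16 and RGS19, and a fold of at least 10 left 4, namely RGS3, RGS12, RGS16 and RGS19.

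**Figure D4:**
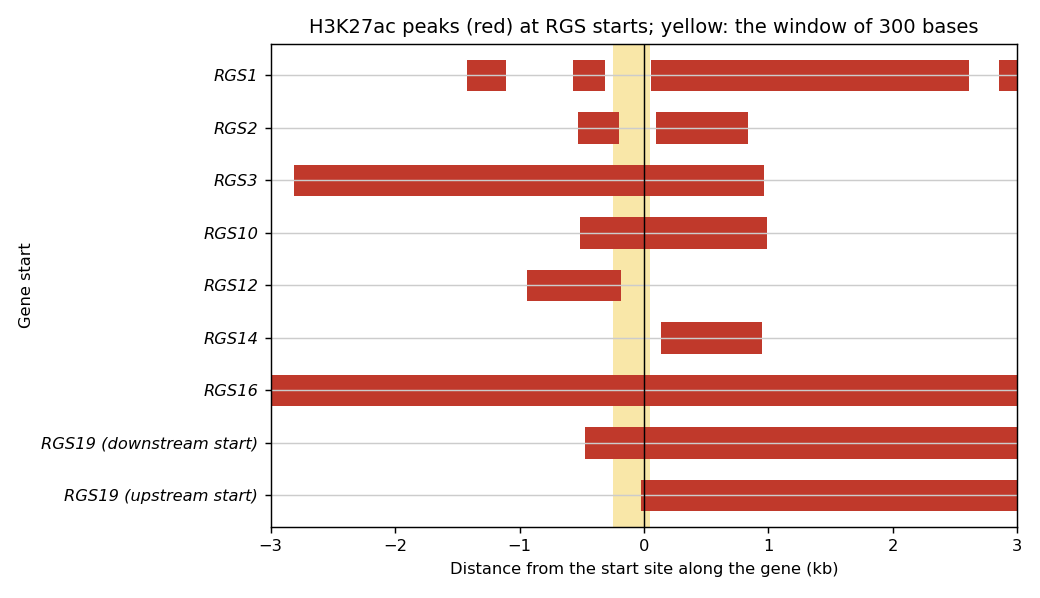
H3K27ac peaks (red) within 3 kb of the 9 RGS starts that have one within 1 kb (x axis, kb along the gene; 1 row per start), with the 300 bases shaded yellow. At RGS1 and RGS2 peaks lie on both sides with a gap over the start itself, and RGS16 is covered throughout.

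The bases before the start are shown for the 4 R4 genes of chromosome 1 with a single start and for RGS19, because they contrast in acetylation and in base composition. Sequences are from RefSeq on GRCh38.p14, 5' to 3' on the gene's strand and ending at the base before the start; capitals mark bases inside an H3K27ac peak.
RGS1, chr1:192575523-192575772, plus strand: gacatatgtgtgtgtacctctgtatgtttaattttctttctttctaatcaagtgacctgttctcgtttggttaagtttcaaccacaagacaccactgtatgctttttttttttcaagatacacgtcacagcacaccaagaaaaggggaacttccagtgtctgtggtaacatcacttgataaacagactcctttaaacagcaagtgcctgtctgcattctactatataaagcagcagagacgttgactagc
RGS2, chr1:192808789-192809038, plus strand: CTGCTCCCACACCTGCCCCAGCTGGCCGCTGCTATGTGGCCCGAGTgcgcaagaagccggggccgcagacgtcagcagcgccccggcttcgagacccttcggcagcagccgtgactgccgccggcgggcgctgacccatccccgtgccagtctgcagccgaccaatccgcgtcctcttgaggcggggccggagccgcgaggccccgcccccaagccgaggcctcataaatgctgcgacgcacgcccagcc
RGS16, chr1:182604390-182604639, minus strand: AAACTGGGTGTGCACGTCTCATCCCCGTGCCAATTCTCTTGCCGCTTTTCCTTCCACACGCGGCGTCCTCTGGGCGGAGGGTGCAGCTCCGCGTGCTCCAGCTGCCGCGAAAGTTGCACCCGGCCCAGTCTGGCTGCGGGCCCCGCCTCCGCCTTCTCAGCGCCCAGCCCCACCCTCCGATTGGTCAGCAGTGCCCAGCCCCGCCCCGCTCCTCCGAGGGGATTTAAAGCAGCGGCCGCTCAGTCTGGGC
RGS18, chr1:192158212-192158461, plus strand: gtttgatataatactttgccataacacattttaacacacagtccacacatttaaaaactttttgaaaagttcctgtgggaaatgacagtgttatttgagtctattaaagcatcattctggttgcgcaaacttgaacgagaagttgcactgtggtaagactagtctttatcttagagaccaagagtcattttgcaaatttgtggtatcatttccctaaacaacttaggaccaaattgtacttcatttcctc
RGS19, chr20:64079965-64080064, minus strand, the last 100 bases: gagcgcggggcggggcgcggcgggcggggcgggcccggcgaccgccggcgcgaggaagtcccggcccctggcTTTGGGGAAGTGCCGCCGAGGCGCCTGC

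All 9 members were found in the promoter table, with 19 starts. Over the 250 bases before the start, G and C made up 72.8% at RGS2 and 68.4% at RGS16, and CpG pairs numbered 28 and 22. At RGS1 and RGS18 the share was 39.2% and 34.8%, with 3 and 2 CpG pairs. Among all 22198 starts of protein-coding genes, H3K27ac lay within 1 kb of 72.2% of those with 65% or more G and C and of 24.1% of those with less than 50%. RGS1 was thus a marked start in a class where most were not, and RGS18 an unmarked one in the same class. For RGS3 the acetylated start had 61.6% G and C, while the unmarked start at 113463727 had 75.2%.

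Short motifs were searched on both strands of the same 250 bases as letters only, in the form shown and no other. AP-1 (TGANTCA) was found at 0 of 19 RGS starts and 5.36% of all starts, CRE (TGACGTCA) at 0 and 2.01%, and NF-kB (GGACTTTCC) at 0 and 0.356%. The PU.1 letters GAGGAAGT were found at 1 RGS start, the upstream one of RGS19, from -49 to -42, just outside the bases marked by H3K27ac, and at 2.23% of all starts. TATAAA on the gene's strand, with its first base 40 to 20 bases before the start, was looked for after the sequences had been seen. It stood at -27 in RGS1 alone among the 19, and in 3.05% of all starts.

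SIRT1, the second protein mapped, is a nuclear deacetylase of histones and transcription factors. Its 41 peaks in the RGS windows were weak: 15 rested on 2 fragments at the summit, 21 on 3 and 5 on 4 or 5. Their folds ran from 2.10 to 3.80 with a median of 2.78, the same to 3 digits as that of the whole list. Their -log10 q was 0 in 36 and at most 0.237, so none reached a q of 0.05. A SIRT1 peak was present in 7 of 9 windows, against 92.7% of all windows, and in 5 of 9 records, against 50.7%. Over the 9 windows together there were 3.12 SIRT1 peaks per 100 kb, against 3.06 over all protein-coding windows. These shares lie near the background, and with a fold of at least 4 no SIRT1 peak remained.

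The windows of RGS1 and RGS2 had 0 SIRT1 peaks, with the nearest 88198 bp past RGS1 and 54578 bp before RGS2. RGS12 had the most, 14 in its window and 7 in its record, each on 2 or 3 fragments. RGS10 had 9 in a window of 143 kb, of which 1 lay in its record. That peak, from 119537574 to 119537865 with a fold of 3.54 on 4 fragments, came within 1 kb of the second RGS10 start, and no H3K27ac peak was nearer than 5141 bp to that start. RGS10 was the only member with a SIRT1 peak that close to a start, against 5.11% of all genes with a start. The summit of that peak lay at -1044 bp from the start, outside the 1 kb, and its -log10 q was 0.175. RGS3 had 6 in its window and 3 in its record, RGS19 6 and 0, and RGS14 3 and 0.

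RGS18, the member without H3K27ac in its record, had the SIRT1 peak of highest fold among the 41. It lay inside the record at 192176863 to 192177176, with a fold of 3.80 on 5 fragments over a background of 0.578. Its -log10 q was 0.237. RGS16 had 1 SIRT1 peak, from 182600290 to 182600757 in its record, with a fold of 3.16 on 4 fragments and a -log10 q of 0.133. This was the only one of the 41 that overlapped an H3K27ac peak, the one of 21081 bp, or 2.44% of the 41. Over all protein-coding windows 1.01% of the 59441 SIRT1 peaks overlapped H3K27ac, so 1 of 41 says nothing particular about these genes. The records of RGS3, RGS10 and RGS12 also held both kinds of peak, with 0 overlaps, where H3K27ac covered 7794 of 153009, 5730 of 42903 and 2764 of 154023 bp.

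**Figure D5:**
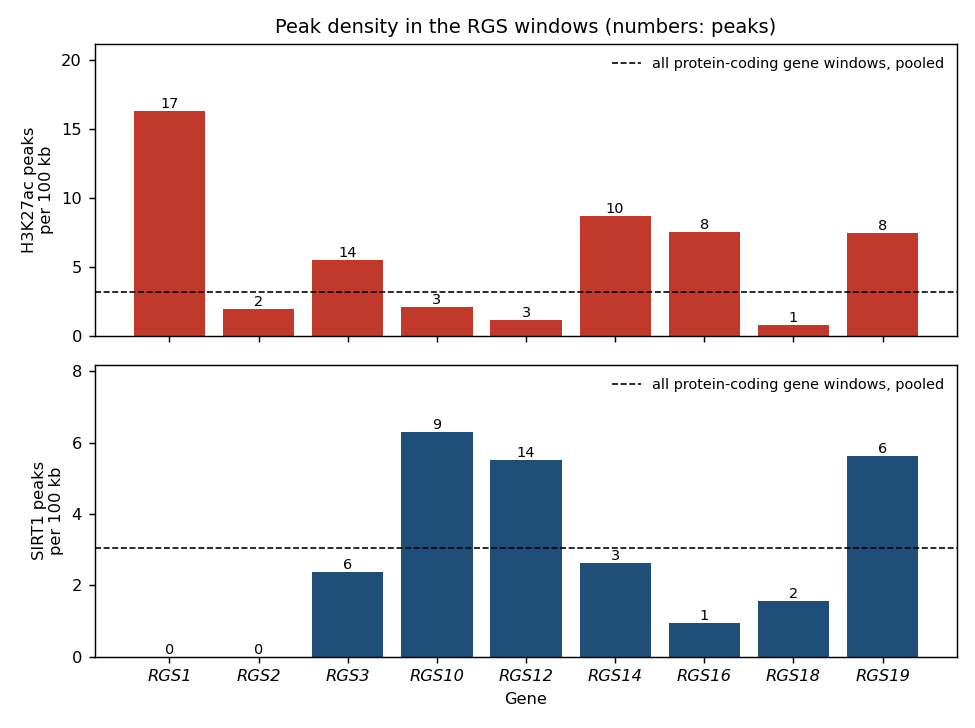
H3K27ac (top) and SIRT1 (bottom) peaks per 100 kb of window (y axes) for each gene, with the number of peaks on each bar and the value pooled over all protein-coding windows dashed (3.17 and 3.06). RGS1 is highest for H3K27ac and has no SIRT1 peak; RGS10, RGS12 and RGS19 lie above the dashed SIRT1 line.

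Neighbours and the window limit shaped the counts. Of the 66 H3K27ac summits 24 lay in the member's own record, 10 in another protein-coding record, 17 in a non-coding record only and 15 in none. Of the 41 SIRT1 summits 13 lay in the member's record and 15 in another protein-coding one, such as GRK5 beside RGS10 and DOK7 beside RGS12. Just inside the limit of 50 kb lay an H3K27ac peak 49754 bp before RGS14 with a fold of 6.68. Just outside lay one 50577 bp past the record of RGS16 on the right with a fold of 3.31. Another, with a fold of 4.58, lay 51040 bp before RGS14. The RGS1 window cut through a domain of 9 joined peaks, from 192507265 to 192531166, with a highest fold of 28.1. Stronger peaks outside had a fold of 51.1 at 53030 bp to the right of RGS10 and 22.7 at 52609 bp to the right of RGS14. For SIRT1 the peak just inside lay 49471 bp to the left of RGS10, with a fold of 3.47, and the nearest outside 52680 bp to the right of RGS18, with a fold of 2.20.

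The rest of the pathway was read from 5 lists. Of the 12 other RGS genes, 9 had a start in the table and 1 of these carried H3K27ac there, RGS5 with a fold of 8.47; 5 had a peak in the record. Among G-protein alpha subunits 8 of 9 starts were marked, led by the Gi subunit gene GNAI2 at a fold of 74.2 and GNA13 at 43.1. Among beta and gamma subunits 8 of 12 were, led by GNG5 at 81.5 and GNB1 at 63.7. Of the receptors listed for myeloid cells 12 of 19 were, led by the prostaglandin E receptor gene PTGER4 at 36.5 and the platelet-activating factor receptor gene PTAFR at 30.2. The counts for beta and gamma subunits and for receptors lie near the share over all genes. Of receptor kinases, arrestins and effectors 12 of 13 were, led by the arrestin gene ARRB2 at 71.0 and the kinase gene GRK2 at 50.9. Listed genes without a start in the table were left out of these counts and ranks. Among them were GNAQ and P2RY6, with highest folds of 92.7 and 41.9 in the record. The median of the highest fold at the start was taken with unmarked genes counted as 0. It was 21.2 for alpha subunits, 22.6 for kinases, arrestins and effectors, 6.53 for receptors and 4.21 for beta and gamma subunits. For the other RGS genes it was 0 and for the 9 members 8.08, against 7.52 over all genes with a start. Over all genes marked at a start it was 19.2, above the fold at the start of each marked member but RGS16 and RGS19.

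Of all protein-coding records 50.7% held a SIRT1 peak, and a name below means only that a listed peak overlapped the record. SIRT1 peaks lay in the records of 8 of the 12 other RGS genes, namely RGS4, RGS5, RGS6, RGS7, RGS9, RGS17, RGS20 and RGS22. They lay in 10 of 12 alpha subunit genes (all but GNA11 and GNA15) and in 8 of 13 beta and gamma genes (GNB1, GNB4, GNB5, GNG2, GNG4, GNG5, GNG7 and GNG12). For receptors the number was 6 of 23, namely CX3CR1, PTAFR, P2RY6, P2RY12, PTGER4 and LPAR6. For kinases, arrestins and effectors it was 9 of 20, namely GRK3, GRK5, ARRB1, PLCB1, PLCB4, ADCY3, ADCY7, ADCY9 and ARHGEF1. The median record of these lists was 109 kb for other RGS genes and 63.0 and 76.3 kb for the subunits. It was 12 kb for receptors and 52.3 kb for effectors, against 14.7 kb for the 9 members and 24130 bp over all protein-coding genes. The receptors, with the shortest records of the 5 lists, had the lowest share, and the part of record length in these counts was not tested.

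Likeness was taken over both libraries as the distance between records in log2 of the highest H3K27ac fold, of H3K27ac bases plus 1 and of SIRT1 peaks plus 1. It was computed for the members with the most H3K27ac peaks in the record, and is given here for RGS3, RGS10, RGS12 and RGS19. The nearest gene was PTPRC for RGS3, with 3 SIRT1 peaks in each record and highest folds of 13.9 and 14.6. It was YPEL2 for RGS10, CELSR1 for RGS12 and PPAN for RGS19, at distances of 0.0444, 0.0943 and 0.0352.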

How the data were processed

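Chromatin immunoprecipitation was measured in 1 H3K27ac, 1 SIRT1 and 1 input library of PMA-treated THP1 cells; a peak list was used for each antibody. The submitters' processing notes name hg38, MACS2 and deepTools. Tool versions, the aligner and the control sample: not given in the sources used here. Fold at the summit is the authors' ratio to local background, read here as a ratio with 1 added to both fragments and background. At few fragments the added 1 makes the fold much smaller than the plain ratio. The deposited -log10 p and -log10 q are also the authors'. The deposited score is a truncated whole number, 10 times the -log10 q for H3K27ac but 10 times the -log10 p for SIRT1. The smallest -log10 q was 1.30 for H3K27ac and 0 for SIRT1, whose smallest -log10 p was 2.00, so the lists were filtered differently and no value was compared across them. The deposited summit offset placed each summit.

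Overlap meant at least 1 shared base. Starts, strand and promoter bases came from a RefSeq table on GRCh38.p14, which holds a start for 15842 of 20033 protein-coding genes. Fragments at the summit were solved from fold and -log10 p as a Poisson tail, with 1 whole-number solution for each of the 107 window peaks. On simulated peaks 99.9% of 1960 (H3K27ac) and 99.9% of 1976 (SIRT1) were returned. The simulated peaks were made with the same formula, so they check the arithmetic and cannot check the formula. They did not reach the fragment numbers of the strongest H3K27ac peaks, up to 524, nor the lowest SIRT1 backgrounds. Percentages over all genes are descriptions. The members and lists were chosen with earlier results of these data known. Named genes were all members; of each list the 2 highest folds at a start and those with a SIRT1 peak in the record; neighbours sharing window peaks; and the nearest profiles for the members with most H3K27ac peaks. The nearest profile of RGS14 is not reported here. Exons, introns and UTRs were not annotated, since only gene records and starts were used here. Tables were made with pandas 2.3.3 and numpy 2.4.6 in Python 3.11.15, Poisson tails with scipy 1.17.1 and figures with matplotlib 3.10.9.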

Additional observations from a re-analysis of the deposited data

How the results depend on the processing

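The 6 counts were recomputed in 30 alternative settings, of which 18 stayed within 1.5 times the reported count and 12 did not. Members with H3K27ac at a start fell from 8 to 4 with a fold of at least 10 and to 5 when the summit had to lie within 1 kb. The 66 H3K27ac peaks became 13 with a fold of at least 10, 25 in records only and 103 with 100 kb on both sides. The 41 SIRT1 peaks became 13 in records only, 65 with 100 kb, 0 with a fold of at least 4 and, a setting chosen after seeing the data, 5 on at least 4 fragments. Members with a SIRT1 peak in the record went from 5 to 0 with that fold and to 3 with that many fragments. The 1 overlap of SIRT1 with H3K27ac was lost, at 0, with that fold. Apart from the drop to 5, fewer peaks or a narrower or wider window account for these changes by construction. That drop came from RGS3, RGS16 and RGS19, whose peaks at the start had summits at -2200, -10963 and 2397 bp from the nearest start. Few fragments limit every SIRT1 value, and total depth is unknown. No paired analysis was possible because each antibody had 1 library.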

Other observations

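Outside the 9 genes, RGS6, a neuronal and cardiac R7 member with a record of 762695 bp, had no H3K27ac at its start. Its record held 19 H3K27ac peaks, with a highest fold of 21.2, and 38 SIRT1 peaks with a highest fold of 4.41. RGS7, of the same subfamily, had 0 H3K27ac and 35 SIRT1 peaks in a record of 582489 bp. RGS8, beside RGS16, had 3 H3K27ac and 0 SIRT1 peaks in a record of 110559 bp. RGS13, between RGS1 and RGS2, had 0 of either in a record of 24165 bp. Over all protein-coding windows there were 3.17 H3K27ac and 3.06 SIRT1 peaks per 100 kb. The counts given for RGS6, RGS7, RGS8 and RGS13 were not adjusted for record length. These genes were singled out after their values were seen.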
